A study of Mus musculus with 11 samples.

Results

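Short hairpin RNAs (shRNAs) against Chd1 were compared with a control hairpin inside 3 lines derived from WFU3, which are cultured epithelial stem cells of the mouse prostate, and the 3 comparisons were joined into 1 common Chd1 effect. The members were chosen from the labels: the 6 libraries that carry a Chd1 hairpin, and the 3 control-hairpin libraries of the same lines, which makes 9 of the 11 libraries of the series. Control clone 4 carries a non-targeting hairpin in a GFP lentivirus, and clones 1 and 7 carry a hairpin against Map3k7, the gene of the kinase TAK1, in the same kind of vector. Each of these lines was then given a puromycin-marked hairpin, either a control or the Chd1 construct 96526 or 96528. In the series' own groups these are 1 shControl, 2 shChd1, 2 shMap3k7 and 4 shDouble libraries. All 9 libraries therefore hold 2 kinds of integrated hairpin vector, the control-hairpin libraries included.

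Each line was grown from a colony picked with a cloning cylinder, so a line stands for 1 clone. Clone 4 was at passage 52 with the control hairpin and construct 96526 and at passage 50 with 96528. Clone 1 was at passage 49 throughout, and clone 7 was at passage 47 with the control hairpin and 48 with both Chd1 constructs. RNA was taken 24 h after plating. Each line had a single control-hairpin library, to which both of its Chd1 libraries were compared, and nothing states that libraries came from separate cultures. The p-values below measure the spread between these libraries, which may be technical.

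CHD1 is an ATP-dependent chromatin remodeller with paired chromodomains that bind the methylated histone tails found at the start of active genes. It spaces nucleosomes and travels with elongating RNA polymerase II together with the PAF1 complex and FACT. In human prostate cancer CHD1 is often deleted, frequently together with MAP3K7, and CHD1 has been tied to DNA double-strand break repair.

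Libraries held between 14132371 and 23163709 counts. The clone 4 control library, at 18859722 counts, was deeper than both of its Chd1 libraries, at 15520540 and 14846114, whereas the control libraries of clones 1 and 7 were shallower than theirs. A count of 3 corresponded to 0.132 to 0.216 counts-per-million (CPM). Both luminal and basal prostate markers were present. Of 20 luminal markers 17 had counts, with a summed level of 4166 to 10450 CPM with the control hairpin and 2790 to 10700 CPM with a Chd1 hairpin, led by the keratins Krt8 (785 to 3941 CPM) and Krt18 (387 to 3102 CPM), while the secretory genes Pbsn and Msmb had no count in any of the 9 libraries. All 23 basal markers had counts, with a summed level of 6173 to 9118 CPM with the control hairpin and 4234 to 9034 CPM with a Chd1 hairpin. Among them Krt14 stood at 545 to 2406 CPM, whereas the basal keratins Krt5, Krt15 and Krt17 stayed at or below 1.93 CPM. The fibroblast markers Dpt, Thy1 and Lum, the endothelial markers Cdh5 and Cldn5 and the immune markers Adgre1, Tyrobp and Cd3e were at 0 in all 9. Other members of these lists had counts. Of 10 endothelial markers 8 did, with sums of 2.47 to 4.15 CPM (control hairpin) and 2.14 to 3.73 CPM (Chd1 hairpin). Of 10 immune markers 7 did, with sums of 15.4 to 128 CPM and 12.8 to 134 CPM. Cd14 alone stood at 8.74 to 132 CPM. The summed fibroblast list lay between 7.67 and 49.6 CPM with the control hairpin and between 5.47 and 134 CPM with a Chd1 hairpin.

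Chd1 mRNA was lower in every Chd1 library than in the control-hairpin library of its line, and much of it was left. In clone 4 Chd1 stood at 194 CPM with the control hairpin, 145 CPM with 96526 and 150 CPM with 96528. Clone 1 gave 220 CPM with the control hairpin, 197 CPM with 96526 and 161 CPM with 96528. Clone 7 gave 237, 193 and 189 CPM in the same order. The Chd1 libraries thus kept 73.5% to 89.7% of the level of their own control, 79.3% on average over the 6. Between lines the ranges overlapped: clone 1 with construct 96526 had more Chd1 mRNA than clone 4 with the control hairpin.

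The pooled log2 fold change of Chd1 was -0.34 ± 0.07 (SE, 6 against 3 libraries), with an adjusted p of 0.48 by edgeR's quasi-likelihood test, so the targeted gene itself did not pass the threshold of 0.05 over all genes. Taken alone, an exact permutation test over the 27 ways of naming 1 library of each line the control gave a two-sided p of 0.037, the smallest that test can give. By unadjusted p Chd1 ranked 15th of 14346 genes, and 2nd among those that were lower. Map3k7 did not follow the Chd1 hairpins: its pooled log2 difference was -0.01 ± 0.06, with 137 to 138 CPM in clone 4 and 39.1 to 42.8 CPM in the 6 libraries of clones 1 and 7.

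**Figure D1:**
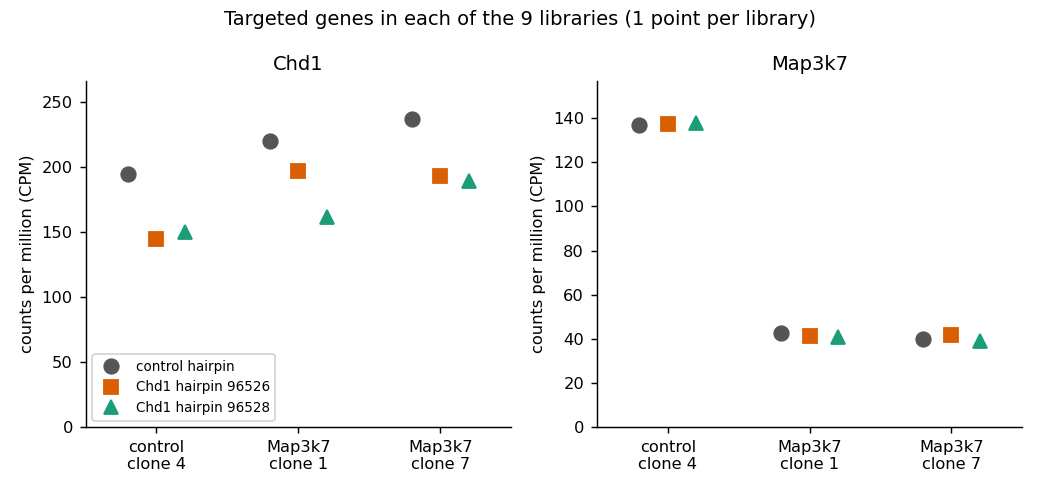
Level of the 2 targeted genes in CPM (vertical axes, from 0) in each line, 1 point per library, by hairpin. Chd1 was lower in all 6 Chd1 libraries than in the control library of the line, and Map3k7 separated the lines but not the hairpins within a line.

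In the pooled comparison 4 of 14346 genes were called higher at an adjusted p under 0.05 (0.0279%) and 0 lower. At an unadjusted p under 0.05 edgeR's test gave 711 genes, 436 higher and 275 lower. The median standard error of a pooled log2 fold change was 0.105, and 2.07% of genes had a pooled change of more than 2-fold in either direction. The 4 called genes were Atp12a, Slc6a2, Col3a1 and Igfbp5. Slc6a2 met the naming rule, which asks for the same direction in all 6 libraries, and the other 3 are named after their values were seen because they are the remaining calls.

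All 4 rested on clone 4. Atp12a, which encodes the catalytic subunit of a proton-potassium pump (chr14:56365068-56388550, GRCm38), rose from 9.19 CPM with the control hairpin to 83.8 CPM with 96526 and 71.2 CPM with 96528 in clone 4, 9.11-fold and 7.75-fold. The 6 libraries of clones 1 and 7 held 2 Atp12a counts in all. Its pooled log2 fold change of 3.07 ± 0.20 (adjusted p = 2.87e-04 by edgeR) is therefore a change in 1 line.

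Col3a1, a fibrillar collagen chain (chr1:45311538-45349706), went from 17.9 CPM to 90.5 and 86.8 CPM in clone 4, and clones 1 and 7 together gave 1 count with the control hairpin and 3 with the Chd1 hairpins. Its pooled log2 fold change was 2.28 ± 0.21 (edgeR, adjusted p = 0.00329). Col3a1 is also a fibroblast marker. Of the 11 listed fibroblast markers 8 had a count in some library while Dpt, Thy1 and Lum had none, and their part in the result was not tested. Igfbp5, a secreted binding protein of insulin-like growth factors (chr1:72857932-72874884), went from 2.12 CPM to 90.3 CPM with 96526 and 49.1 CPM with 96528 in clone 4. It also stood higher in clone 1, at 0.259 CPM with the control hairpin against 1.72 and 2.51 CPM, from 4, 39 and 55 counts. In clone 7 it had 1, 1 and 0 counts. Its pooled log2 fold change was 4.81 ± 0.48 (edgeR, adjusted p = 0.00482). For Igfbp5 clones 4 and 1 thus moved the same way and clone 7 had too few counts to show a direction.

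Slc6a2, the noradrenaline transporter (chr8:92960079-93001667), was the only called gene that was higher in all 6 libraries. Clone 4 went from 23.9 CPM to 75.2 and 74.4 CPM. In clone 1 the values were 0.129, 0.396 and 0.411 CPM, and in clone 7 they were 0.360, 0.466 and 0.591 CPM, from 2 to 10 counts a library. The pooled log2 fold change was 1.59 ± 0.14 (edgeR, adjusted p = 0.00307). Of the counts of the 4 genes over the 9 libraries, clone 4 held 95.8% to 99.9%. Left out of the fit, clone 4 took all 4 calls with it. Without the clone 4 control library alone the count was also 0. That omission likewise removes the Chd1 difference of clone 4, so it is no separate result. The 2 control lines that have no Chd1 partner differed widely in Col3a1 and Igfbp5. Col3a1 stood at 34.0 CPM in the unnumbered control line (passage 30) and at 1.21 CPM in control clone 5, and Igfbp5 at 17.7 and 0.990 CPM. Atp12a stood closer together, at 12.7 and 9.07 CPM in the same order, and Slc6a2 at 7.61 and 4.67 CPM. Each of these values lay below both Chd1 libraries of clone 4.

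**Figure D2:**
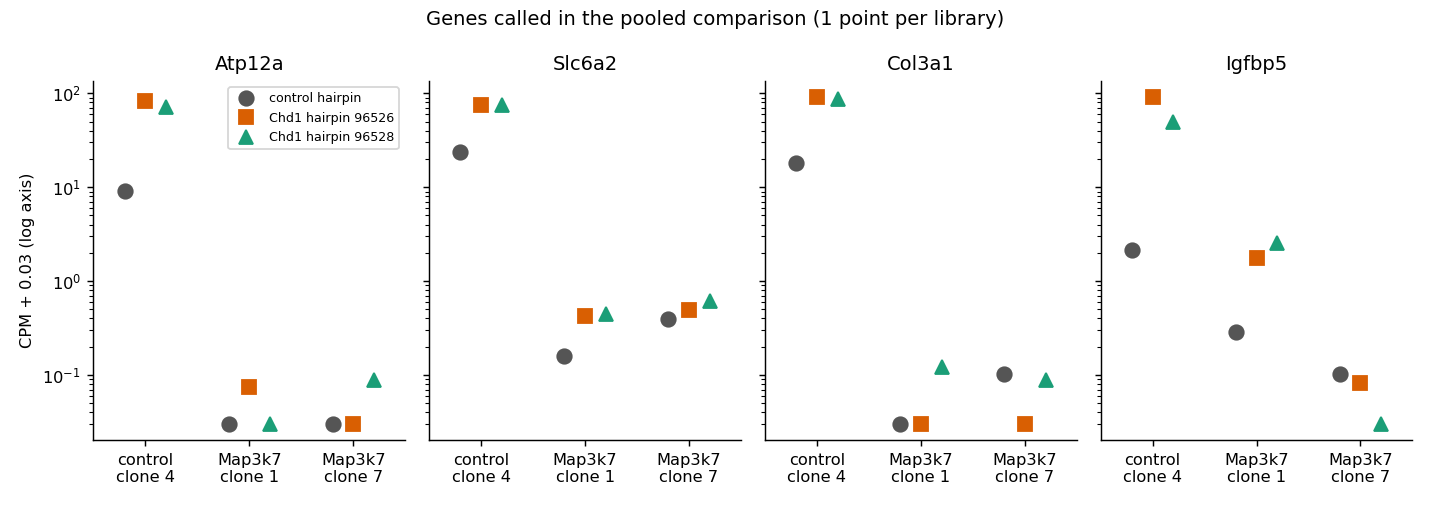
CPM of the 4 called genes with 0.03 added (log axis, shared), by line and hairpin, 1 point per library; points at the bottom are libraries with no count. In clone 4 the control library lies below both Chd1 libraries, and most libraries of clones 1 and 7 lie below 1 CPM.

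Over all genes, the differences seen in 1 line did not track those seen in another. For each gene the log2 CPM difference of a Chd1 library from its own control was set against that of a Chd1 library of another line, over the 12 pairs that have no library in common. Across 14346 genes Pearson's r ran from -0.112 to 0.045 (median -0.0235) and Spearman's rank correlation from -0.138 to 0.056 (median -0.0365). This is a description across genes, which are not independent replicates, and it includes genes of few counts. Libraries differed from their own control by more than 2-fold in 3.39% to 7.08% of genes, and the largest of these shares came from clone 4 with 96528.

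Tested line by line in the model with a separate effect in each line, 143 genes were called in clone 4 (0.997%; 57 higher, 86 lower), 0 in clone 1 (0%) and 2 in clone 7 (0.0139%). At an unadjusted p under 0.05 edgeR gave 2264, 384 and 878 genes. Of the 145 genes called in at least 1 line, 0 were called in 2 or more. With 0 calls in clone 1 and 2 in clone 7, at most 2 genes could have been shared. The missing overlap therefore says little about the lines. The 2 calls of clone 7 were the predicted genes Gm10359 and Gm12671. Each of these tests sets 2 libraries against 1, with 3 residual degrees of freedom for the whole fit. These come from the 2 constructs within each line, so variation of a control library does not enter the p-values.

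**Figure D3:**
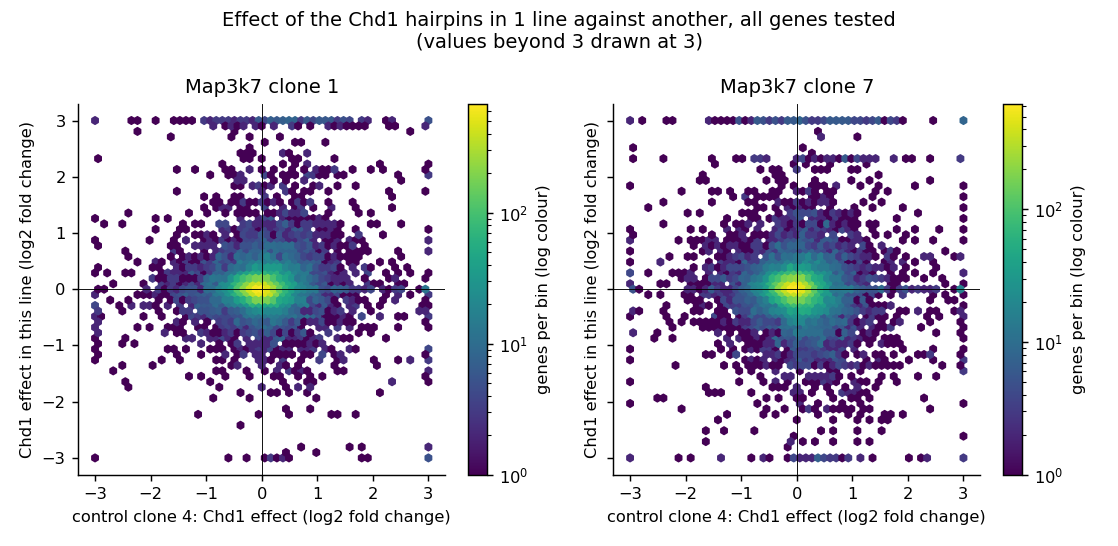
Fitted log2 fold change of Chd1 against control hairpin in clone 4 (horizontal axes) and in clone 1 or clone 7 (vertical axes) for all 14346 genes, coloured by the number of genes per bin. The clouds have no visible slope, and the widest values on 1 axis sit near 0 on the other or belong to genes of few counts.

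Genes with the same direction in all 6 libraries numbered 498 higher (3.47%) and 488 lower (3.4%) of 14346. Both Chd1 libraries of a line share its control library, so a control library that is high or low for a gene moves both differences together. The naming rule took the 12 genes of smallest p in each direction with at least 5 CPM. None of the 23 besides Slc6a2 was called, with adjusted p from 0.18 to 0.85 by edgeR, and they are given as values.

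Among those higher in all 6, Rorb, an orphan nuclear receptor, had the lowest adjusted p (0.184) with a log2 fold change of 0.89 ± 0.15. Rorb stood at 11.8, 18.3 and 25.3 CPM in clone 4 (control hairpin, 96526, 96528), at 3.43, 5.63 and 5.98 CPM in clone 1 and at 1.51, 3.26 and 3.31 CPM in clone 7. The step within each line was of like size although the lines started from different levels. Dpm1, the catalytic subunit of the enzyme that makes the mannose donor of protein glycosylation in the endoplasmic reticulum (ER), gave 16.6, 21.6 and 21.2 CPM in clone 4, 12.9, 16.2 and 17.5 CPM in clone 1 and 11.7, 17.9 and 15.3 CPM in clone 7. Its log2 fold change was 0.42 ± 0.09.

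Mme, the membrane peptidase neprilysin, showed the largest pooled value of this group that was not called, 1.08 ± 0.28, and also the most uneven one. In clone 4 it went from 24.4 to 79.0 and 109 CPM, in clone 1 from 17.5 to 18.7 and 25.3 CPM and in clone 7 from 6.63 to 10.2 and 14.4 CPM. Sfrp1, a secreted inhibitor of Wnt signalling, went from 30.9 to 49.8 and 54.4 CPM in clone 4, from 14.1 to 17.4 and 20.8 CPM in clone 1 and from 26.3 to 26.6 and 35.1 CPM in clone 7. The other members were Rhoj, Mcc, Aox1 (aldehyde oxidase), Bphl, Casc4, Asap2 (a regulator of Arf GTPases) and Aak1 (a kinase of clathrin-mediated uptake), with pooled log2 values from 0.24 (Aak1) to 0.84 (Mcc).

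Among those lower in all 6, Chd1 came first, and Lrp8, a lipoprotein receptor that also binds reelin, came next with a log2 fold change of -0.34 ± 0.08. Lrp8 stood at 46.5, 29.2 and 33.0 CPM in clone 4, at 126, 105 and 102 CPM in clone 1 and at 97.6, 85.4 and 88.4 CPM in clone 7. Nt5e, the surface enzyme CD73 that makes adenosine, gave 58.9, 38.1 and 26.4 CPM in clone 4, 28.1, 24.1 and 24.1 CPM in clone 1 and 57.9, 43.4 and 38.3 CPM in clone 7. Hsd3b7, an enzyme of bile acid synthesis, gave 17.4, 14.2 and 12.6 CPM, then 11.4, 9.06 and 7.49 CPM, then 11.1, 8.24 and 5.74 CPM. In Nt5e and Hsd3b7 the lowest library of clones 4 and 7 was that of construct 96528.

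Prl2c2, a secreted prolactin family member, had a pooled log2 value of -0.90 ± 0.23, and its reads may be divided with near-identical copies of the gene, so its value is uncertain. Oaf and Neurl1a (a ubiquitin ligase) had pooled values of -0.46 (SE 0.119) and -0.45 (SE 0.117). The remaining members, Hsp90b1, Calr, Hspa5, Sdf2l1 and Pdia6, all encode proteins of the ER.

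Those 5 belong to the list of unfolded protein and ATF4 response genes. When proteins fail to fold in the ER, the sensors ATF6, IRE1 and PERK switch on genes for ER chaperones and folding enzymes, and PERK also raises the transcription factor ATF4. Many of the chaperone genes carry the ER stress response element, whose letters are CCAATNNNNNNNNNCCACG. Of the 32 measured members, 12 were lower than their own control in all 6 Chd1 libraries (37.5%, against 3.4% of all genes) and 1 was higher in all 6, Ppp1r15a. None was called in the pooled fit. The list was drawn up with earlier results of these data known, the members are not independent of each other, and the share is a description.

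The median pooled log2 value of the list was -0.12, beside 0 for all genes. With 96526 the list's median was -0.08, -0.08 and -0.12 for clones 4, 1 and 7, and with 96528 it was -0.12, -0.09 and -0.19. The medians of all genes lay between -0.01 and 0.01. Counted without clone 4, 15 members were lower in all 4 remaining libraries (46.9%, against 10.3% of all genes), a count added after the data were seen.

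The 12 were Hspa5, Hsp90b1, Calr, Pdia3, Pdia4, Pdia6, Manf, Sdf2l1, Dnajb11, Creld2, Shmt2 and Trib3. The first 10 encode ER chaperones, disulphide isomerases and their helpers, and Shmt2 and Trib3 are known targets of ATF4. Hspa5, the main ER chaperone BiP (chr2:34771970-34777547), stood at 851, 776 and 717 CPM in clone 4 (control hairpin, 96526, 96528), at 1033, 958 and 907 CPM in clone 1 and at 1089, 950 and 896 CPM in clone 7. Its pooled log2 fold change was -0.19 ± 0.05 (edgeR, adjusted p = 0.789). Within each line the order was the same, control above 96526 above 96528, but the control level of clone 4 lay below every Chd1 library of clones 1 and 7.

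Hsp90b1, the ER form of the chaperone HSP90 (chr10:86690209-86705509), gave 801, 717 and 738 CPM in clone 4, 1027, 910 and 843 CPM in clone 1 and 1082, 947 and 916 CPM in clone 7. Calr, the lectin chaperone calreticulin (chr8:84841850-84846934), gave 829, 782 and 725 CPM, then 1005, 906 and 895 CPM, then 1038, 836 and 844 CPM. Pdia6, a disulphide isomerase (chr12:17266545-17284770), gave 282, 218 and 208 CPM, then 289, 270 and 255 CPM, then 266, 241 and 242 CPM. The size of the difference varied between lines: Pdia6 differed by -0.37 and -0.44 in clone 4 and by -0.10 to -0.18 in clones 1 and 7, and Calr by -0.09 and -0.20 in clone 4 and by -0.31 and -0.30 in clone 7.

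Over the 12 genes the pooled log2 values ran from -0.29 (Sdf2l1) to -0.12 (Pdia3), and the single within-line differences from -0.44 to -0.02. The control lines without a Chd1 partner did not form an upper edge. Control clone 5 lay above all 6 Chd1 libraries for 4 of the 12, and the unnumbered control line for 0 of the 12, with Hspa5 at 729 CPM and Hsp90b1 at 733 CPM there.

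The transcription factors of the response are given as values, and their difference from the chaperones was not tested. Atf4 had a pooled log2 value of -0.01 (SE 0.064; below its control in 4 of 6 libraries) and Xbp1 one of -0.05 (SE 0.086; also below in 4 of 6). Atf6 stood at 0.04, and Atf3, a stress-induced factor, at -0.27, below its control in 5 of 6 libraries. Ddit3, an ATF4 target tied to cell death, was at 3.82 to 5.98 CPM throughout with a value of 0.09 (SE 0.144). Herpud1, a part of the degradation machinery of the ER, was higher in 5 of 6 libraries with 0.34 ± 0.13, mainly from clone 4, at 34.2, 52.5 and 58.1 CPM. Ppp1r15a, which reverses the translational block set by PERK, had 0.18 ± 0.07.

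**Figure D4:**
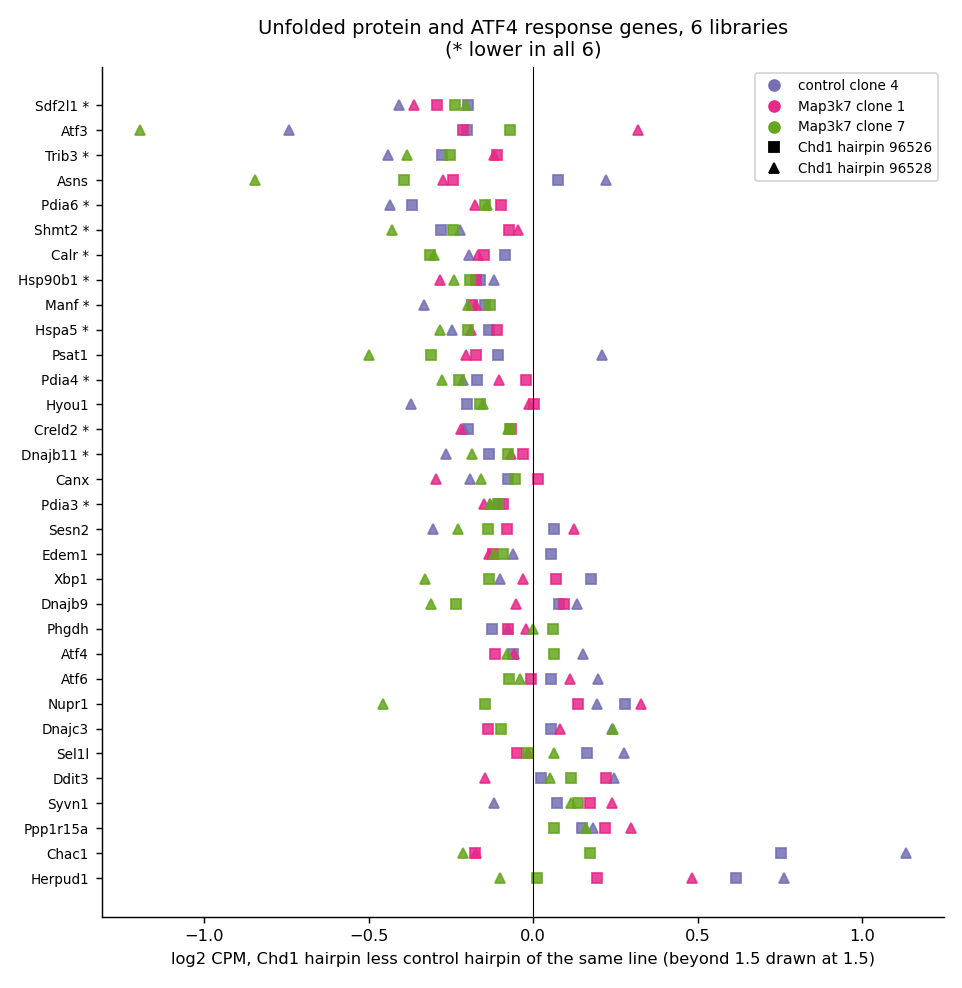
Difference in log2 CPM of each Chd1 library from the control-hairpin library of its line (horizontal axis) for the 32 measured genes of the unfolded protein and ATF4 response list (rows, ordered by pooled value); colour gives the line and shape the construct. The 12 genes marked with a star have all 6 points left of 0, at -0.44 to -0.02.

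Promoter letters were available for 29 of the 32 genes, as RefSeq windows on GRCm38.p6 from 250 bases before the start site to 50 after. The element was searched on both strands. It stood in 8 of the 29 (27.6%), against 17 of 10260 tested genes with a promoter window (0.166%) and 39 of 32851 windows in all (0.119%). The 8 are among the 17. Of the 11 genes lower in all 6 libraries that had a window, 5 held it (45.5%): Hspa5, Hsp90b1, Calr, Pdia6 and Creld2. Of the 18 others, 3 held it (16.7%): Canx, Dnajc3 and Syvn1, whose pooled values had no common sign. The 2 groups are unlike in kind: the 11 are mostly ER chaperones and their helpers, while the 18 include Ddit3, Atf3, Atf4 and Xbp1. A link between the element and the direction was not tested. A match is a description of the letters and not a test of binding. Because many chaperone genes carry the element, a high share in this list was likely whatever the Chd1 hairpins did. The 250 bases before the RefSeq start of 3 of the genes are shown because they carry the element of the chaperones described above. It is in capitals (on the other strand where it reads CGTGG first). These RefSeq starts lie inside the GENCODE gene coordinates given above, so part of each stretch overlaps them.
Hspa5, chr2:34771840-34772089, plus strand: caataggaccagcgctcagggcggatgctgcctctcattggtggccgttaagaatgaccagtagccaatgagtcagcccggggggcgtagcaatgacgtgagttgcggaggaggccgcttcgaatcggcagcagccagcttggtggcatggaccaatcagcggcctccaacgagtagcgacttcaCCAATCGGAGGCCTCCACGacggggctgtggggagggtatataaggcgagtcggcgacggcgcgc
Hsp90b1, chr10:86705445-86705694, minus strand: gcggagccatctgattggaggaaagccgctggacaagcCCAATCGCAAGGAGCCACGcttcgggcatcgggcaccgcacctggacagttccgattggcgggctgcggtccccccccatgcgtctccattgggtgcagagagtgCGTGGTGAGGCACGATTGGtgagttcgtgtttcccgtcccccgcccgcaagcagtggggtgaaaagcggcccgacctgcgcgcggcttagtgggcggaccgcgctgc
Pdia6, chr12:17266339-17266588, plus strand: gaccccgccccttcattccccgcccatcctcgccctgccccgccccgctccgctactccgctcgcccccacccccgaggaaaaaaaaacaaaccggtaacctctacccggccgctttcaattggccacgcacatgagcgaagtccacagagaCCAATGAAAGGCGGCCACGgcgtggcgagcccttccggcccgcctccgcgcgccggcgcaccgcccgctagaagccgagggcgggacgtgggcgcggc
The Hsp90b1 stretch holds the element 2 times, once on each strand. In Calr and Creld2 the element lies on the strand opposite to the gene, and it is given here as it reads on its own strand with the fixed letters in capitals.
Calr: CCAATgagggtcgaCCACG
Creld2: CCAATtgaggctcgCCACG

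Among the 10 CHD family genes measured, Chd1 was the one that was lower in all 6 libraries. Chd2, the closest relative of Chd1, was higher in all 6: 114, 129 and 135 CPM in clone 4, 79.0, 86.0 and 99.9 CPM in clone 1 and 96.1, 104 and 106 CPM in clone 7. The pooled log2 value of Chd2 was 0.19 ± 0.06 and was not called (edgeR, adjusted p = 0.938). Chd9 was also higher in all 6, by 0.06 ± 0.05, and Chd4 and Chd8 had pooled values of -0.04 (SE 0.051) and 0.01 (SE 0.05). The family's median was -0.01, and of all genes 3.47% were higher and 3.4% lower in all 6 libraries.

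The 28 genes of the PAF1 complex, FACT, elongation and pausing factors, the partners of CHD1 on elongating polymerase, had a median of -0.01, with 0 called. Ccnt1 and Aff4, of the elongation kinase P-TEFb and its super elongation complex, were higher in all 6 by 0.08 (SE 0.054) and 0.13 (SE 0.052). Nelfcd, Supt4a, Cdc73 and Wdr61 were lower in all 6, by values from -0.12 (Nelfcd) to -0.07 (Cdc73), with Cdc73 and Wdr61 being PAF1 complex subunits. None of the 6 was called, and of all genes 3.47% were higher and 3.4% lower in all 6 libraries.

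The 44 genes of double-strand break repair had a median of -0.01 with 1 higher and 1 lower in all 6. Genes of the androgen response list (57 measured) had a median of 0.01 with 4 higher and 1 lower in all 6. Over all genes the shares were 3.47% higher and 3.4% lower in all 6. Of the transcription factors that have been linked to antiandrogen resistance after CHD1 loss, Nr3c1 (the glucocorticoid receptor) gave 0.10 ± 0.08 and Nr2f1 gave 0.34 ± 0.14, higher in 4 and in 5 of 6 libraries.

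Other lists leaned one way in the pooled value because of clone 4. Of 40 ribosome biogenesis genes 35 had a negative pooled value (of all genes 7166 of 14346 had a positive one), with a median of -0.08. Their library medians were -0.28 (96526) and -0.29 (96528) in clone 4, whereas clone 1 had -0.04 and -0.08 and clone 7 had 0.10 and 0.05. Interferon response genes (49 measured) had a pooled median of 0.13, which came from 0.42 (96526) and 0.37 (96528) in clone 4. Clone 1 had 0 and 0.07, and clone 7 had -0.15 and -0.23. The interferon-induced gene Ifi44 went from 5.01 to 16.7 and 17.7 CPM in clone 4, where it was called (edgeR, adjusted p = 0.0231), and stayed below 1 CPM in the other lines.

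Epithelial junction and identity genes (42 measured) had a pooled median of -0.16, from -0.31 (96526) and -0.63 (96528) in clone 4, while clones 1 and 7 lay between -0.06 and 0.04. In clone 4, where 0.599% of all genes were called lower, the junction genes Pkp1, Dsp and Cdh3 were among them. So were 5 of 21 basal markers, Jag2, Krt14, Lama3 and Lamb3 among them. Not all of that list went down: Trp63, the p63 transcription factor that defines basal cells, had a fitted log2 value of 0.70 in clone 4 (edgeR, adjusted p = 0.434), and Snai2 one of 0.40 (adjusted p = 0.566). These are markers of the cell type itself, and whether clone 4 with a Chd1 hairpin held other proportions of cell states or less of these RNAs per cell cannot be told apart in bulk RNA.

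Of 35 p53 targets 5 were lower in all 6 libraries, where 3.4% of all genes were, and 0 were higher in all 6, with a median of -0.10 and library medians from -0.19 to -0.003. They were Mdm2, the ubiquitin ligase that restrains p53 (pooled -0.24 ± 0.08), Cdkn1a, the inhibitor of cyclin-dependent kinases also called p21 (-0.20 ± 0.11), Fas, Zmat3 and Ckap2. Mdm2 stood at 111, 103 and 84.3 CPM in clone 4, 272, 246 and 203 CPM in clone 1 and 203, 180 and 173 CPM in clone 7. With construct 96528 it was the lowest library of each line.

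Of 33 cholesterol and fatty acid synthesis genes 25 had a positive pooled value, with a median of 0.07 and library medians from -0.06 (clone 4 with 96528) to 0.14 (clone 1 with 96528). Stard4, Hsd17b7 and Elovl6 were higher in all 6, where 3.47% of all genes were. Elovl6 (the elongase of long-chain fatty acids) stood at 113, 169 and 205 CPM in clone 4 and at 118, 128 and 142 CPM in clone 1. In clone 7 Elovl6 stood at 133, 148 and 156 CPM, and its pooled value was 0.36 ± 0.11. Cytosolic ribosomal protein genes, all 78 measured, had a median of -0.01 with none in 1 direction in all 6. Median differences by chromosome stayed between -0.10 and 0.08 in all 6 libraries, the lowest on chromosome 10 in clone 4.

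**Figure D5:**
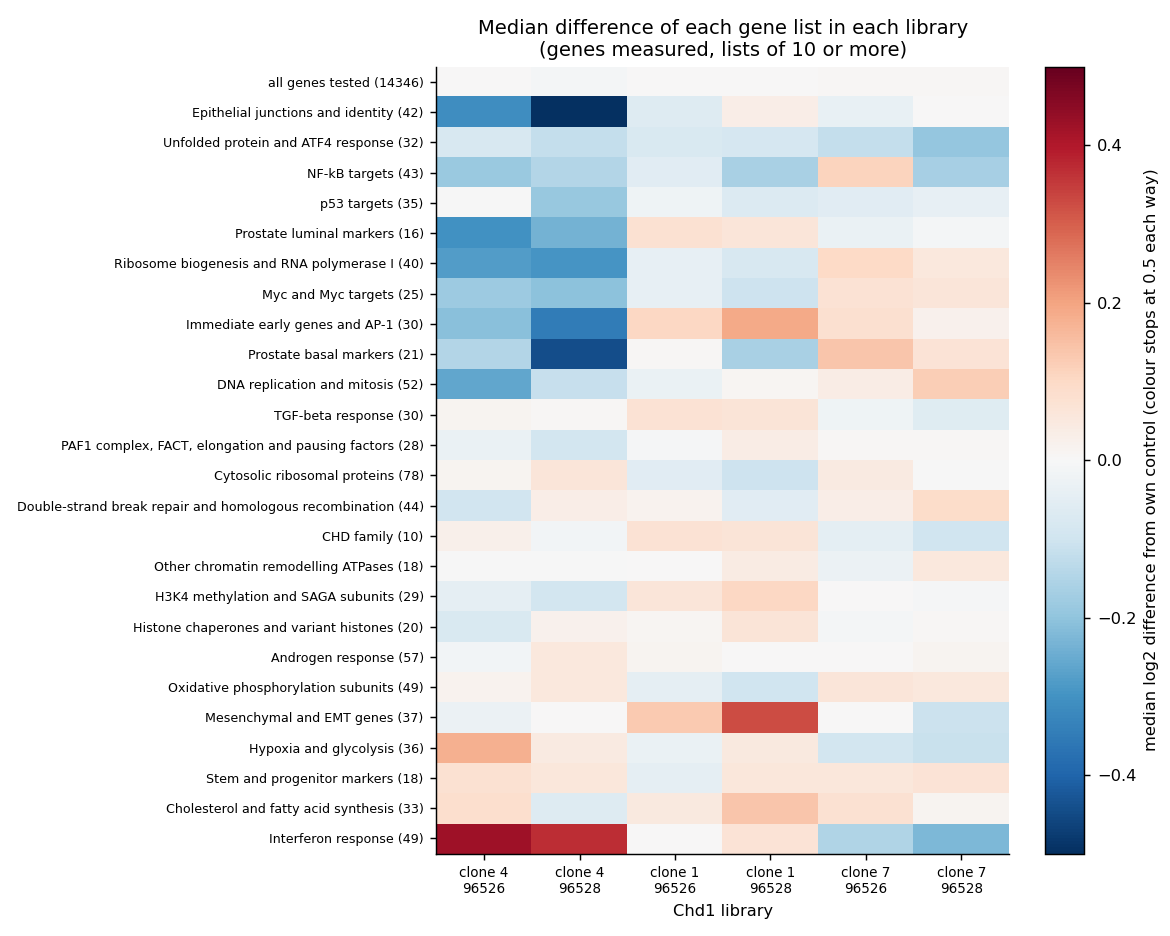
Median log2 difference of each gene list with 10 or more measured genes (rows, ordered by pooled median, all genes on top) in each of the 6 Chd1 libraries (columns). The unfolded protein row is below 0 in all 6 columns, from -0.19 to -0.08, while rows such as epithelial junctions, ribosome biogenesis and interferon response have their strongest colour in the 2 columns of clone 4.

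A common effect can be tested directly against separate effects. The difference of the Chd1 effect among the 3 lines was called for 3 genes (0.0209%), Tenm4 and the predicted genes Gm10359 and Gm12671. The narrower contrast, the mean effect in clones 1 and 7 less that in clone 4, was called for 29 genes (0.202%; 20 with a positive difference, 9 negative). Of the 26 with gene names, all 18 with a positive difference were lower with the Chd1 hairpins in clone 4 and all 8 with a negative difference were higher there. Clone 4 alone forms 1 side of the contrast, so picking genes by it largely set these directions. In clone 1 the largest fitted change among the 26, in either direction, was 0.34 on the log2 scale. Clone 7 went further, with -1.17 for Sulf1, 0.78 for Pthlh, 0.62 for Dynap and -0.60 for Fut9. Sulf1 was not called in clone 4 (0.48; edgeR, adjusted p = 0.0818). Clone 4 is both the only line without a Map3k7 hairpin and a single clone, and these cannot be told apart.

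Genes of the positive side included Lama3, a laminin chain of the epithelial basement membrane, at 51.4, 13.6 and 10.3 CPM in clone 4, 103, 104 and 91.8 CPM in clone 1 and 90.3, 89.3 and 128 CPM in clone 7, a difference of 2.20. Cdh3 (P-cadherin) gave 20.8, 6.62 and 4.09 CPM in clone 4, 62.1, 66.2 and 75.5 CPM in clone 1 and 38.9, 34.1 and 38.5 CPM in clone 7, a difference of 2.0. Tenm4, a teneurin adhesion receptor, gave 16.4, 5.26 and 3.84 CPM in clone 4, 64.8, 56.7 and 57.8 CPM in clone 1 and 71.4, 101 and 111 CPM in clone 7. Tenm4 was thus lower than its control in both Chd1 libraries of clone 4 and higher in both of clone 7.

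Genes of the negative side included Tnfrsf21, the death receptor DR6, at 88.3 CPM with the control hairpin of clone 4 and above it there by 1.50 (96526) and 1.18 (96528) on the log2 scale. It stood at 34.9, 34.0 and 32.5 CPM in clone 1 and at 24.8, 26.3 and 30.9 CPM in clone 7. Sorbs2, an adaptor of the actin cytoskeleton, gave 48.6, 109 and 116 CPM in clone 4 and 52.7 to 79.8 CPM in the other 6 libraries. Sema3d, a secreted semaphorin, and Fut9, a fucosyltransferase, had differences of -2.15 and -1.49. Krt8, Krt14, Dsp, Jag1, Plau, Fosl1 and Serpinb5 were also among the calls with a positive difference. In all of these the clone 4 control library alone is the reference of that line.

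The 2 Chd1 constructs did not act alike in every gene. Paired by line over the 6 Chd1 libraries, 5 genes differed between 96528 and 96526 (0.0349%), all lower with 96528. Il1a, the cytokine interleukin 1 alpha, gave 0.248 and 0.126 CPM in clone 4 (96526, 96528), 1.14 and 0.320 CPM in clone 1 and 51.0 and 6.68 CPM in clone 7, a log2 difference of -2.76 ± 0.23 (edgeR, adjusted p = 0.00359). Ccng1 (cyclin G1) with 96528 stood at 60.0%, 57.7% and 61.3% of its level with 96526 in clones 4, 1 and 7, Hmga2, an architectural chromatin protein, at 63.7%, 58.4% and 61.7%, and Lrrfip1 at 60.2%, 54.8% and 61.2%. Tnc, the matrix protein tenascin C and the remaining call, stood at 65.8%, 71.8% and 64.5%. Ccng1 with 96526 was within 0.12 on the log2 scale of its own control in all 3 lines, and with 96528 it was at -0.59 to -0.80. Its pooled value of -0.28 (SE 0.206) lies between. Chd1 itself did not separate the constructs in clones 4 and 7, at 145 against 150 and 193 against 189 CPM, and in clone 1 it stood at 197 CPM with 96526 and 161 CPM with 96528.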

How the data were processed

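Messenger RNA was sequenced from 11 WFU3 libraries, of which 9 were used. The authors deposited expected counts per gene, made with Bowtie2 and RSEM 1.3.1 on GRCm38 per the submitters' processing notes, and a second table of log2 values, which the deposited counts give as log2 of (count + 0.5) less a constant per library, to within 5.02e-09. The annotation and strand setting are given by none of the sources at hand, and RSEM divides reads between similar genes. Counts were rounded to whole numbers. In R 4.3.3, edgeR 4.0.16 was used with TMM factors, filterByExpr (minimum count 10, minimum total 15; 14346 of 48299 genes kept) and the quasi-likelihood F-test on a model of line plus Chd1 hairpin, with Benjamini-Hochberg adjustment over all genes. A second model gave each line its own effect, and another compared the constructs. CPM values are TMM-scaled, and log2 differences within a line used a prior count of 2. The procedure was tested on data simulated from its own fitted model. Such data cannot show what the single control library per line or differences between the constructs do to the results. Reads carried no molecular identifiers, so limits from counts cover counting error only.

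Genes were named by rule: the 12 largest called changes each way with a mean of at least 5 CPM and 1 sign in all 6 libraries, filled up to 12 by smallest p; up to 4 members of a list; up to 4 each way in the other comparisons; and CHD family and resistance genes. A few of these genes are not reported here. The members and the 31 gene lists were chosen with earlier results of these data known, so lists are given by counts and medians. Gene coordinates come from GENCODE M21, and those of the promoter stretches from the RefSeq windows. Alternatives were limma 3.58.1, DESeq2 1.42.0, other scaling and filters, no block, each construct alone and each library or line left out.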

Additional observations from a re-analysis of the deposited data

Results flagged for a closer look

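Of 35 genes whose 6 within-line differences were checked for a value apart from the other 5, 2 had one. For independent values chance gives about 1 in 20. Here both differences of a line share its control library, and most of the 35 genes were picked for 1 sign in all 6. That rate therefore need not hold. Asap2 was higher by 0.12 in clone 4 with 96526, with the other 5 libraries closer to each other. Manf, a secreted ER protein, was at -0.33 in clone 4 with 96528.

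The effect of the Chd1 hairpins differed between the Map3k7 clones and clone 4, on the log2 scale, by 2.46 for Dynap, 2.20 for Lama3, 2.04 for Tenm4 and 2.0 for Cdh3, and by -2.15 for Sema3d, -1.49 for Fut9, -1.42 for Sorbs2 and -1.28 for Tnfrsf21. Each passed the edgeR test of the difference itself at an adjusted p under 0.05. Map3k7 knockdown and clone cannot be told apart in this contrast.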

How the results depend on the processing

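The pooled count of 4 called genes became 0 with no replicate block (line left out of the model), 1 with no block and Map3k7 knockdown as covariate, 0 with limma on the deposited log2 values, 19 with limma voom, 25 with no filter on low counts, 2 with the Chd1 libraries of a line summed, 2 with construct 96526 only and 0 with construct 96528 only. Leaving out a library or a line gave 0 to 6. The count was 0 without clone 4, and 2 without the clone 4 library of 96526. It was also 0 without the clone 4 control library, which likewise removes the Chd1 difference of that line. DESeq2 called 5 genes: Slc6a2, Cacna1g, Nid1, Rorb and Chd1. Its value for Chd1 was -0.337, with an adjusted p of 0.0223, while under the other alternatives Chd1 was at -0.293 to -0.383 and was not called. The difference among lines was called for 0 genes by limma voom. The construct comparison gave 10 genes by limma voom, 0 with no replicate block and 12 to 953 with a line left out, the highest without clone 4 (525 higher, 428 lower), with 1 residual degree of freedom. Most of the 27 named genes followed had been picked for 1 sign in all 6 libraries. A kept direction was therefore largely set by that choice and is no measure of robustness. Of 648 values of the 27 genes under alternatives, 644 kept their direction. The other 4 were of Map3k7, at 0.009 with construct 96526 only and, with a library or line left out, between 0.002 and 0.015, where all such fits gave -0.025 to 0.015. The causes were not tested. A single control library per line limits every within-line value.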
